A study of Sus scrofa with 6 samples.

Results

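The solute carrier genes are the SLC family of membrane transporters, and their expression was followed in the embryonic pig cerebral cortex on either side of the period in which the cortical surface folds. Total RNA from the cortex of 3 embryos at E80 (arrays 4, 5 and 6) and of 3 embryos at E60 (arrays 1, 2 and 3) was hybridised to the Affymetrix Pig Genome Array, with 1 array per embryo. All 6 samples were whole cortical tissue, and the labels name no breed, treatment or sex and do not say which litter each embryo came from. A gene was taken as a member when a probe set (the group of short probes that reads 1 transcript) carried exactly 1 symbol, and that symbol was an SLC family number followed by a letter and a number. SLC30A3 was left out by this rule. It gave 119 genes read by 174 probe sets, out of 6765 genes read by 10069 probe sets with exactly 1 symbol. The brightest probe set was used for each gene, and 81 of the 119 genes had only that probe set.

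Solute carriers move sugars, amino acids, nucleotides, metals, vitamins and inorganic ions across membranes, either down a gradient or coupled to the movement of sodium, protons or another solute. In the brain they bring glucose across the blood-brain barrier, remove glutamate from the extracellular space and set the ionic gradients that neurons use, and a large subfamily, SLC25, carries metabolites across the inner mitochondrial membrane. Several of them are textbook markers of a cell type, such as SLC1A2 for astrocytes and SLC2A1 for the vessels of the barrier. The vesicular transporters of glutamate and GABA, the plasma membrane GABA transporter and the neuronal chloride cotransporter were not analysed here.

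None of the 119 solute carrier genes passed the test between the days (limma, Benjamini-Hochberg over 23999 probe sets, adjusted p threshold 0.05), and none of their 174 probe sets did. At an unadjusted p under 0.05 there were 14 genes, 11 with more signal at E80 (9.24%, against 10.1% of all genes) and 3 with less (2.52%, against 10.6% of all genes). Over all probe sets 467 passed, which is 1.95% of those tested. Among all 6765 genes 1.49% rose and 1.05% fell, so that a set of 119 genes with few or no calls does not stand far from the background. The lowest adjusted p was 0.0516, for SLC1A2.

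The signals of the days separated completely in 24 of the 119 genes. In 17 genes (14.3%) all 3 E80 arrays lay above all 3 E60 arrays, against 12.8% of all genes, and in 7 genes (5.88%) all E80 arrays lay below, against 14.7% of all genes. The median log2 difference of the members, E80 minus E60, was 0.08 (range -1.16 to 1.45), against -0.00046 over all genes. The sign was positive in 76 genes and negative in 43. On its brightest probe set, no member met the rule of a 3-fold difference with no overlap between the days. Among all genes 0.547% met it with the higher signal at E80 and 0.177% with the lower. A dimmer probe set of SLC9A5 met it, with 13.4, 6.92 and 16.7 at E80, against 4.76, 2.71 and 3.37 at E60 (1.72, SE 0.50). The brightest probe set of SLC9A5 had the other sign (-1.08, SE 0.48). The dim second probe set of SLC25A24, given below, met the rule with the lower signal at E80. With a 2-fold threshold the count of members on their brightest probe sets stayed at 0. Over all 23999 probe sets, 367 met that rule with the higher signal at E80 and 427 with the lower. SLC22A3, which separated, was just short of the threshold at 1.998-fold. The means of 5 genes differed by over 2-fold, and all 5 were dimmer than the median probe set, whose signal was 59.8.

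**Figure D1:**
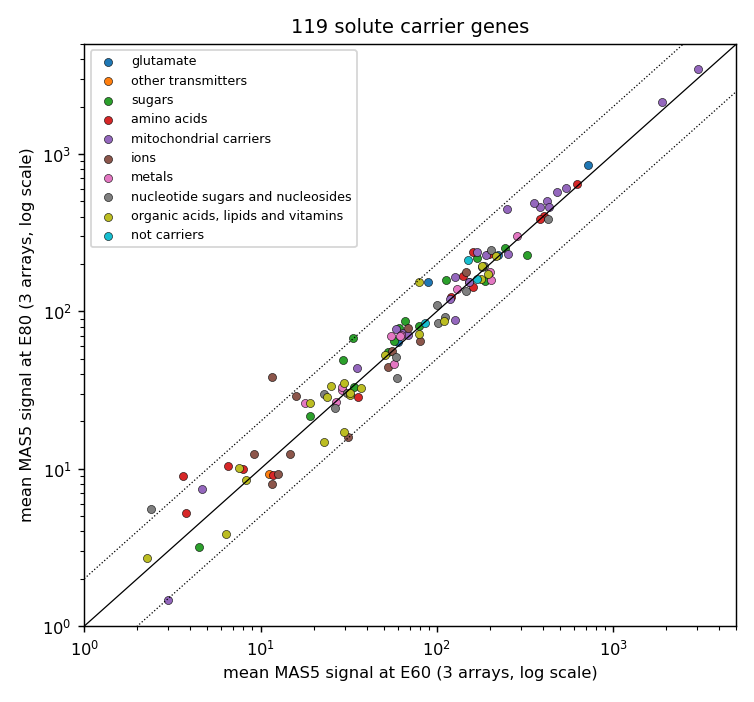
Mean signal of each of the 119 solute carrier genes at E80 (vertical axis) and at E60 (horizontal axis), both on log scales, coloured by substrate class; the solid line marks equal signals and the dotted lines a 2-fold difference. The 5 genes outside the dotted lines all have a mean log2 signal below that of the median probe set.

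The genes were sorted by what they carry, into 9 classes of carriers and 3 genes that share the SLC name without being carriers. The mitochondrial carriers had the highest class median among classes with 5 or more genes (0.23 in 22 genes), followed by the sugar carriers (0.13 in 15 genes) and the metal carriers (0.10 in 12 genes). The carriers of organic acids, lipids and vitamins (0.05 in 21 genes) and of amino acids and peptides (0.03 in 15 genes) were close to the median of all genes. The medians were negative for nucleotide sugars and nucleosides (-0.09 in 14 genes) and for inorganic ions (-0.12 in 12 genes). The first of these turned to 0.01 with quantile normalization and to 0.03 with median centring of the arrays. The median for inorganic ions became -0.03 and -0.0064 in these settings. Median centring moved the median of all genes to 0.11 and that of the 119 members to 0.20. Without array 6, which stood apart as described further on, the medians were 0.19 for mitochondrial carriers, 0.20 for amino acids and peptides, 0.02 for sugars, 0.07 for metals, 0.04 for nucleotide sugars and nucleosides and -0.02 for organic acids, lipids and vitamins.

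**Figure D2:**
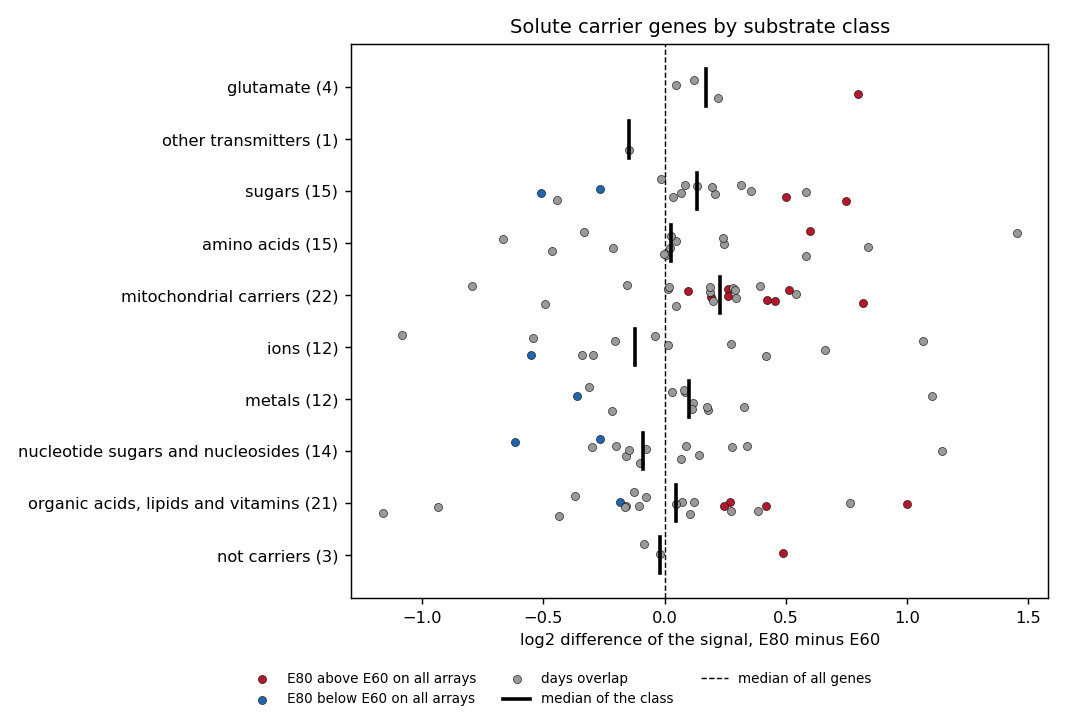
Log2 difference of the signal, E80 minus E60, of each solute carrier gene (points) by substrate class, with the number of genes in parentheses; red points have all E80 arrays above all E60 arrays, blue points all below, and grey points overlap. The black bars are class medians, which run from -0.15 for the only monoamine carrier to 0.23 for the mitochondrial carriers, and the dashed line is the median of all genes at -0.00046.

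Among the glutamate carriers, SLC1A2, the main glutamate transporter of astrocytes, had signals of 146, 145 and 170 on the E80 arrays, against 99.3, 72.0 and 95.3 on the E60 arrays. Every E80 array was above every E60 array, without overlap. The log2 difference was 0.80 (SE 0.16, 95% confidence interval 0.43 to 1.17), with an adjusted p of 0.0516. SLC1A2 passed in 6 of 14 alternative settings, quantile normalization (0.89, adjusted p = 0.0400) and median centring (0.92, adjusted p = 0.0394) among them, and its adjusted p over the 14 ran from 0.0304 to 0.163. Of 7 measured markers of astrocytes 4 rose (GFAP, ALDOC, APOE and CLU), against 1.49% of all genes. The list was written with earlier results of these data known, so this count is a description. S100B separated with E80 higher without passing (0.71, SE 0.28). ALDH1L1 (0.80, SE 0.43) and GJA1 (-0.13, SE 0.22) overlapped between the days. The summed signal of the 7 was 6699, 7017 and 9839 on arrays 4, 5 and 6 of E80, against 4339 to 4891 at E60. Array 6 was also high in choroid plexus markers, as described further on. Without array 6 the log2 difference of SLC1A2 was 0.73. Whether SLC1A2 followed the number of astrocytes was not tested, and in whole tissue fewer or more cells of a type cannot be told apart from less or more RNA per cell.

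The other glutamate carriers did not separate. SLC1A3, the transporter of radial glia and astrocytes, had 71.6, 64.0 and 54.7 at E80, against 78.9, 62.5 and 39.4 at E60 (log2 difference 0.12, SE 0.27). Its 95% confidence interval was -0.49 to 0.74. SLC1A1, the neuronal glutamate transporter and the brightest gene of the class, had 837, 1003 and 703 at E80, against 693, 802 and 670 at E60. The days overlapped, at a difference of 0.22 (SE 0.14). SLC1A6, known from Purkinje cells of the cerebellum, had 205 to 258 at E80, against 205 to 256 at E60.

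The sugar carriers held the solute carrier gene closest to a fall. SLC2A1, the glucose transporter of the blood-brain barrier and of glia, had 242, 190 and 252 at E80, against 303, 351 and 316 at E60. All E80 arrays were below all E60 arrays. The log2 difference was -0.51 (SE 0.13, adjusted p = 0.0934) and the sign held in all 14 alternative settings. None of the 8 measured endothelial markers passed (limma). An unadjusted p under 0.05 with less signal at E80 was found in 2 of them, against 10.6% of all genes. PECAM1 alone had a positive difference (0.06, SE 0.16). Their summed signal was 1023 to 1292 at E80, against 1315 to 1417 at E60. Most of that sum was CLDN5, with 640 to 813 at E80, against 768 to 900 at E60. The part of these markers in the SLC2A1 value was not tested.

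SLC2A3, the glucose transporter of neurons, had 247, 148 and 257 at E80, against 169, 182 and 158 at E60. Arrays 4 and 6 were above all E60 arrays and array 5 was below them, and the difference was 0.32 (SE 0.21). SLC5A4, of the family of sodium-coupled glucose carriers, had 172, 150 and 152 at E80, against 102, 98.3 and 137 at E60 (0.50, SE 0.16, adjusted p = 0.148). SLC2A4, the insulin-responsive glucose transporter of muscle and fat, also separated (40.9, 51.8 and 54.8 at E80, against 25.9, 26.5 and 35.6 at E60), below the median signal. A dimmer probe set of SLC2A4 had the other sign (-2.25, SE 0.91), and the mean over its probe sets was -0.63. SLC37A4, the glucose-6-phosphate carrier of the endoplasmic reticulum, had 171, 156 and 139 at E80, against 171, 200 and 188 at E60 (-0.27, SE 0.13), a separation by a narrow margin. SLC2A8 (0.35, SE 0.18) and SLC37A1 (0.07, SE 0.16) overlapped between the days.

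Of the 22 mitochondrial carriers, 19 had a positive and 3 a negative difference, and in 8 (36.4%) all E80 arrays were above all E60 arrays, against 12.8% of all genes. In none was the E80 signal lower on all arrays. The class is bright, with 19 of its 22 genes above the median signal, and among all genes above that signal 15.3% separated with E80 higher and 17.1% with E80 lower. The count of 8 became 9 with quantile normalization (14.0% of all genes), 13 with median centring (20.7% of all genes) and 12 without array 6 (17.6% of all genes), each time with 0 genes lower on all E80 arrays. No mitochondrial carrier passed the test (limma), and 5 (22.7%) had an unadjusted p under 0.05, all with more signal at E80, against 10.1% of all genes and 12.7% of all genes above the median signal. SLC25A17, a member of the class by its sequence family, is a carrier of peroxisomes.

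SLC25A17, which carries coenzyme A and related cofactors into peroxisomes, had 497, 518 and 332 at E80, against 229, 256 and 266 at E60. The days did not overlap, and array 6 lay well below the other E80 arrays. The log2 difference was 0.82 (SE 0.17, adjusted p = 0.0563), and without array 6 it was 1.02 (adjusted p = 0.0297). SLC25A17 passed in 4 of 14 alternative settings, with adjusted p from 0.0250 to 0.195.

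The adenine nucleotide carriers exchange ADP for ATP across the inner membrane, and the 3 measured ones had differences of the same sign. SLC25A5 had 492, 443 and 527 at E80, against 382, 337 and 347 at E60 (0.45, SE 0.10, adjusted p = 0.0675), and passed in 4 of 14 settings. SLC25A4, the form of heart, muscle and brain, had 614, 560 and 548 at E80, against 446, 493 and 499 at E60 (0.26, SE 0.09, adjusted p = 0.193). Both separated completely. SLC25A6, the form found in most tissues, had 3231, 3648 and 3526 at E80, against 2961, 2747 and 3373 at E60 (0.20, SE 0.10), with 1 E80 array below the highest E60 array. The phosphate carrier SLC25A3, which supplies the phosphate for ATP synthesis, had 2079, 2321 and 2032 at E80, against 1759, 1859 and 2038 at E60 (0.19, SE 0.09). Its second probe set was very dim, with mean signals of 4.12 at E80 and 9.39 at E60 (-1.02, SE 0.66). The mean over both probe sets was -0.42.

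SLC25A24, which exchanges ATP-magnesium for phosphate and is regulated by calcium, had 240, 255 and 224 at E80, against 158, 159 and 188 at E60. The difference was 0.51 (SE 0.12, adjusted p = 0.0681) without overlap. Its second probe set, with mean signals of 4.52 at E80 and 14.1 at E60, had a difference of -2.18 (SE 0.85), which turned the mean over both to -0.83.

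The malate-aspartate shuttle brings the electrons of cytosolic NADH into mitochondria, and some of its carriers and enzymes were looked at together after their values were seen. The aspartate-glutamate carrier SLC25A12 had 559, 475 and 478 at E80, against 418, 431 and 409 at E60 (0.26, SE 0.10, adjusted p = 0.209). The oxoglutarate carrier SLC25A11 had 174, 173 and 151 at E80, against 89.6, 144 and 146 at E60 (0.42, SE 0.20, adjusted p = 0.314). The cytosolic aspartate aminotransferase GOT1 had 379, 338 and 320 at E80, against 256, 254 and 260 at E60 (0.43, SE 0.10, adjusted p = 0.0737). The mitochondrial enzyme GOT2 had 1356, 1281 and 1277 at E80, against 1069, 1111 and 1110 at E60 (0.25, SE 0.08, adjusted p = 0.136). The cytosolic malate dehydrogenase MDH1 had 2243, 2256 and 1999 at E80, against 1881, 1837 and 1902 at E60 (0.21, SE 0.08, adjusted p = 0.235). The mitochondrial MDH2 had 683, 665 and 605 at E80, against 557, 634 and 568 at E60, and the days overlapped (0.15, SE 0.09, adjusted p = 0.45).

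The rest of the class was close to no difference or overlapped. SLC25A21 (0.10, SE 0.09) and SLC25A30 (0.19, SE 0.15) separated with small differences. The citrate carrier SLC25A1 (0.19, SE 0.18), the pyrimidine nucleotide carrier SLC25A33 (0.28, SE 0.12) and the glycine carrier SLC25A38 (0.39, SE 0.20) overlapped. The largest negative value among the bright genes was that of SLC25A46, a protein of the outer membrane, with 80.3, 97.8 and 84.6 at E80, against 143, 149 and 87.3 at E60. Array 3 of E60 was close to the E80 arrays, and the difference was -0.50 (SE 0.22, adjusted p = 0.284).

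**Figure D3:**
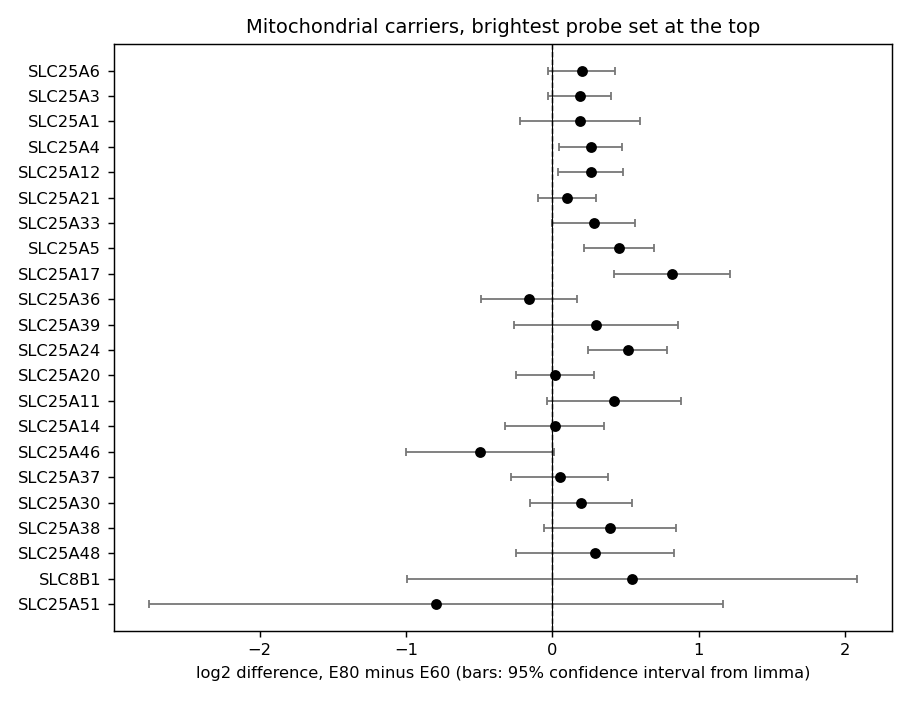
Log2 difference of the signal, E80 minus E60, of the 22 genes of the mitochondrial carrier class (points), with the 95% confidence interval of limma (bars), ordered by signal with the brightest at the top. The points lie right of 0 in 19 genes, and the intervals of the dim genes SLC8B1 and SLC25A51 at the bottom are the widest.

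Among the carriers of amino acids and peptides, SLC15A2, a peptide transporter known from astrocytes and choroid plexus, had 248, 244 and 225 at E80, against 203, 160 and 120 at E60. The days were apart, with a narrow spread at E80 and a wide one at E60. The difference was 0.60 (SE 0.18, adjusted p = 0.136), and its other 2 probe sets, both bright, had 0.33 and 0.17. The bright transporters of glutamine and cationic amino acids had nearly level values. SLC38A1, which takes up glutamine in neurons, had 582 to 733 at E80, against 574 to 657 at E60 (0.05, SE 0.11). Its other probe sets, also bright, had -0.05 (SE 0.12) and -0.33 (SE 0.15), the latter with all E80 arrays below all E60 arrays. SLC7A1, the transporter of arginine and lysine, had 323 to 434 at E80, against 358 to 399 at E60. Its difference was below 0.01 in size, with an interval of -0.29 to 0.29. SLC3A2, the heavy chain of several exchangers, had 231, 218 and 245 at E80, against 169, 182 and 244 at E60 (0.24, SE 0.15). SLC1A5 (-0.21, SE 0.21) and SLC1A4 (0.02, SE 0.13), both carriers of neutral amino acids, overlapped, as did SLC38A10 (0.25, SE 0.15). SLC3A1 had 300 to 482 at E80, against 294 to 475 at E60; it overlaps PREPL in the RefSeq annotation, and which of the transcripts its probe set reads was not tested.

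The ion carriers were mostly dim, with 3 of 12 above the median signal. SLC26A11, an anion carrier, had 190, 135 and 211 at E80, against 162, 134 and 141 at E60 (0.27, SE 0.18). SLC8A1, the sodium-calcium exchanger, had 54.3, 95.3 and 45.2 at E80, against 56.5, 90.2 and 93.1 at E60 (-0.34, SE 0.31). The sodium bicarbonate cotransporter of astrocytes, SLC4A4, spread over 30.0 to 89.0 at E80 and over 28.0 to 85.9 at E60. SLC26A3 was the only ion carrier that separated, at 6.57 to 9.97 at E80 against 10.2 to 12.4 at E60, signals in the range of the dimmest genes.

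Of the metal carriers, SLC11A2, which imports ferrous iron, had 170, 175 and 130 at E80, against 200, 211 and 195 at E60. All E80 arrays were lower, with a difference of -0.36 (SE 0.14, adjusted p = 0.225). The zinc carriers SLC39A7, SLC39A1 and SLC39A4 overlapped between the days. SLC39A7 of the endoplasmic reticulum, the brightest of them, had 314, 282 and 305 at E80, against 266, 282 and 303 at E60 (0.08, SE 0.10). With quantile normalization 5 of the 12 metal carriers separated with E80 higher (14.0% of all genes did), and with median centring 4 (20.7% of all genes), against 0 on the deposited scale.

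The carriers of nucleotide sugars supply glycosylation in the Golgi apparatus, and those of nucleosides salvage adenosine and its relatives. SLC29A1, the equilibrative nucleoside transporter, had 32.2, 40.4 and 41.3 at E80, against 56.7, 46.3 and 74.2 at E60. The E80 arrays were all below the E60 arrays (-0.62, SE 0.23, adjusted p = 0.216), at signals near or below the median probe set. SLC33A1, which carries acetyl-CoA into the endoplasmic reticulum, had 81.4, 87.1 and 83.6 at E80, against 87.7, 117 and 101 at E60 (-0.27, SE 0.15). All 3 of its bright probe sets had a negative difference, from -0.48 to -0.27. The brightest gene of the class, SLC35B1, had 364 to 422 at E80, against 409 to 449 at E60 (-0.15, SE 0.10). SLC35F6 (0.28, SE 0.17) and SLC35F5 (-0.30, SE 0.19) overlapped.

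Among the carriers of organic acids, lipids and vitamins, SLC22A3, a transporter of organic cations that takes up monoamines outside synapses, had 142, 199 and 117 at E80, against 44.6, 84.8 and 109 at E60. The lowest E80 array was just above the highest E60 array. The difference of 1.00 (SE 0.33, adjusted p = 0.169) became 0.63 without array 1 of E60. Further genes that separated with more signal at E80 were dim: the carnitine carrier SLC22A5 had 27.2 to 29.5 at E80, against 19.0 to 27.1 at E60, and SLC46A2 had 29.1 to 38.2 at E80, against 22.0 to 27.9 at E60. The ascorbate carrier SLC23A2 separated with less signal at E80 (30.7 to 33.8, against 34.4 to 40.7 at E60). The creatine transporter SLC6A8 had 171 to 208 at E80, against 163 to 193 at E60 (0.10, SE 0.13), and the multivitamin transporter SLC5A6 had 171 to 274 at E80, against 186 to 271 at E60. SLC22A2, a dim organic cation carrier, had 7.40, 34.8 and 8.90 at E80, against 33.2, 29.5 and 26.2 at E60. Array 5 stood with the E60 arrays and above both other E80 arrays, and without it the difference was -1.86 (adjusted p = 0.0484), against -1.16 with all arrays (adjusted p from 0.0484 to 0.606 over the alternatives). The summed signal of 6 markers of fibroblasts and meninges was 690, 1185 and 690 on arrays 4, 5 and 6 of E80, against 1141 to 1650 at E60. COL1A2, DCN, LUM and the dim DPT were each lower on arrays 4 and 6 than on the other arrays. COL3A1 and PDGFRB did not have this pattern. None of these 6 markers passed (limma). An unadjusted p under 0.05 with less signal at E80 was found in 3 of them, against 10.6% of all genes. Array 5 was also the highest E80 array for SLC22A6, with 67.2, 127 and 67.6 at E80, against 122, 121 and 84.0 at E60 (-0.37, SE 0.28). The part of these markers in the SLC22A2 and SLC22A6 values was not tested.

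The only carrier of a transmitter other than glutamate was SLC6A4, the serotonin transporter, with 6.91 to 10.9 at E80 and 4.89 to 14.7 at E60, far below the median signal. Of the 3 genes that are no carriers, SLC9A3R2, a scaffold protein of the sodium-proton exchanger, had 218, 172 and 247 at E80, against 142, 151 and 158 at E60. It separated with a difference of 0.49 (SE 0.15, adjusted p = 0.136). The related scaffold SLC9A3R1 had 151 to 177 at E80, against 165 to 177 at E60, and the transcription factor SLC2A4RG had 74.3 to 95.5 at E80, against 76.2 to 93.0 at E60.

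**Figure D4:**
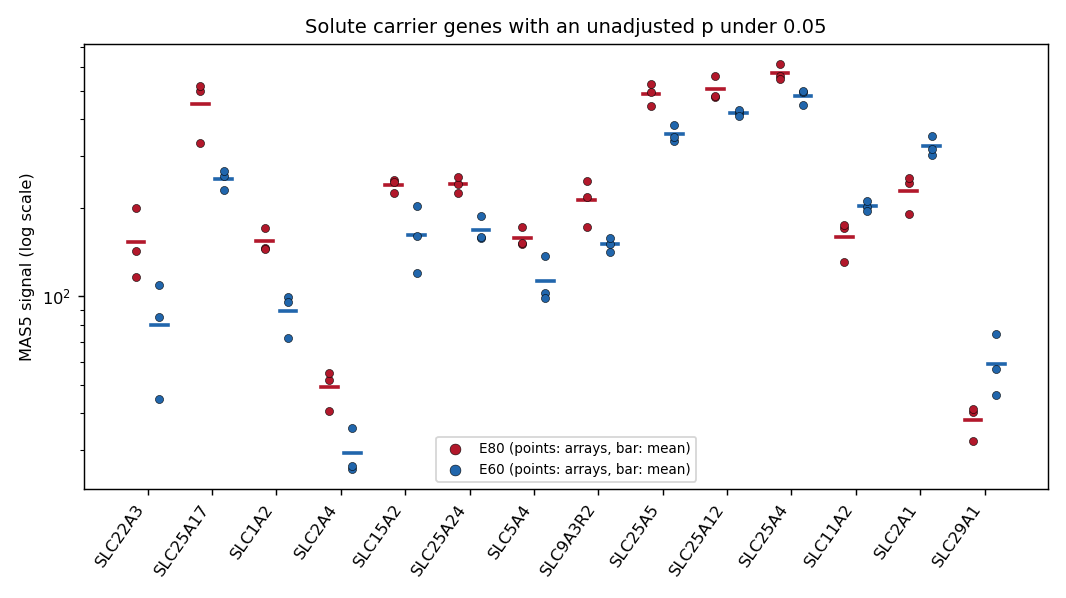
Signal (log scale) of the 14 solute carrier genes with an unadjusted p under 0.05, with 3 arrays at E80 (red, left) and 3 at E60 (blue, right) per gene and the mean as a bar. In all 14 genes the points of the days do not overlap, with E80 above in the first 11 and below in SLC11A2, SLC2A1 and SLC29A1.

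Genes that work with the carriers were listed as enzymes of glutamate and GABA, subunits of the sodium pump, chaperones, kinases of the chloride cotransporters and carbonic anhydrases. Of 33 such genes 18 were measured, 1 rose and 0 fell (limma). An unadjusted p under 0.05 with E80 higher was found in 8 of the 18, against 10.1% of all genes, and with E80 lower in 0, against 10.6%. The days separated with E80 higher in 7, against 12.8% of all genes, and with E80 lower in 1, against 14.7%. GOT1 and GOT2, given above with the malate-aspartate shuttle, were in both counts of genes higher at E80. The gene that rose was ATP1B1, a beta subunit of the sodium pump that builds the gradient used by sodium-coupled carriers, with 2507, 2573 and 2416 at E80, against 1697, 1568 and 1835 at E60 (0.56, SE 0.09, adjusted p = 0.0248). ATP1B3, another beta subunit, also separated, with 919, 1066 and 1220 at E80, against 765, 791 and 870 at E60 (0.39, SE 0.12, adjusted p = 0.129). CA11, from the list of carbonic anhydrases, had the largest difference of the 18, with 143, 201 and 172 at E80, against 54.9, 54.1 and 104 at E60 (1.33, SE 0.27, adjusted p = 0.0502). NPTN and the dim CA3 separated with E80 higher as well. GLUL, the astrocytic enzyme that turns the glutamate taken up by SLC1A2 into glutamine, had 977, 873 and 1220 at E80, against 897, 792 and 758 at E60 (0.32, SE 0.13, adjusted p = 0.263). The days overlapped for GLUL. BSG, the chaperone of the lactate carriers, had 507 to 779 at E80, against 369 to 713 at E60.

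The neuronal markers were bright on every array, as the labelled tissue should have them, with a summed signal over 7 genes of 15702 to 16474 at E80, against 13149 to 14202 at E60. Array 6 of E80 stood apart in markers of the choroid plexus, the epithelium that secretes cerebrospinal fluid. TTR, the thyroid hormone carrier that this epithelium secretes, read 4475 on array 6, while arrays 4 and 5 of E80 gave 15.1 and 6.25 and those of E60 1.47 to 3.70. The summed signal of the 5 measured choroid plexus markers was 5466 on array 6, 112 and 197 on the other E80 arrays and 90.3 to 176 at E60. Of the 6 measured microglial markers 4 were highest there, while the dim ITGAM was highest on array 5 and the dim PTPRC on array 3. Their sum was 621 on array 6, against 221 and 247 on the other E80 arrays and 161 to 247 at E60.

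Solute carriers that were highest on array 6 by at least 1.5 times the next array, with a signal there above the median probe set, numbered 5. That is 4.20% of the members, against 1.30% of all genes. No other array had such a member, and there the share of all genes was 0.0443% to 0.251%. These 5 genes were chosen after their values were seen and by their signal on array 6 itself, so their number and share are a description. SLC4A2 and SLC2A12 were above the median signal on array 6 only. SLC4A2, an anion exchanger of epithelia that is known from the choroid plexus, had 4.88, 14.3 and 95.2 at E80, against 6.32, 4.88 and 23.6 at E60. SLC2A12, a glucose transporter, had 25.9, 32.2 and 145 at E80, against 38.9, 26.3 and 35.1 at E60. SLC2A5, the fructose transporter and in the brain a microglial gene, had 47.8, 52.6 and 159 at E80, against 60.7, 90.2 and 47.4 at E60. On array 6 alone were these genes above every E60 array. The iodide carrier SLC5A5 had 28.0, 80.6 and 128 at E80, against 57.8 to 83.9 at E60, and the magnesium carrier SLC41A1 had 47.6, 58.6 and 104 at E80, against 48.5 to 68.8 at E60. The part of choroid plexus or microglial RNA in these 5 values was not tested.

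**Figure D5:**
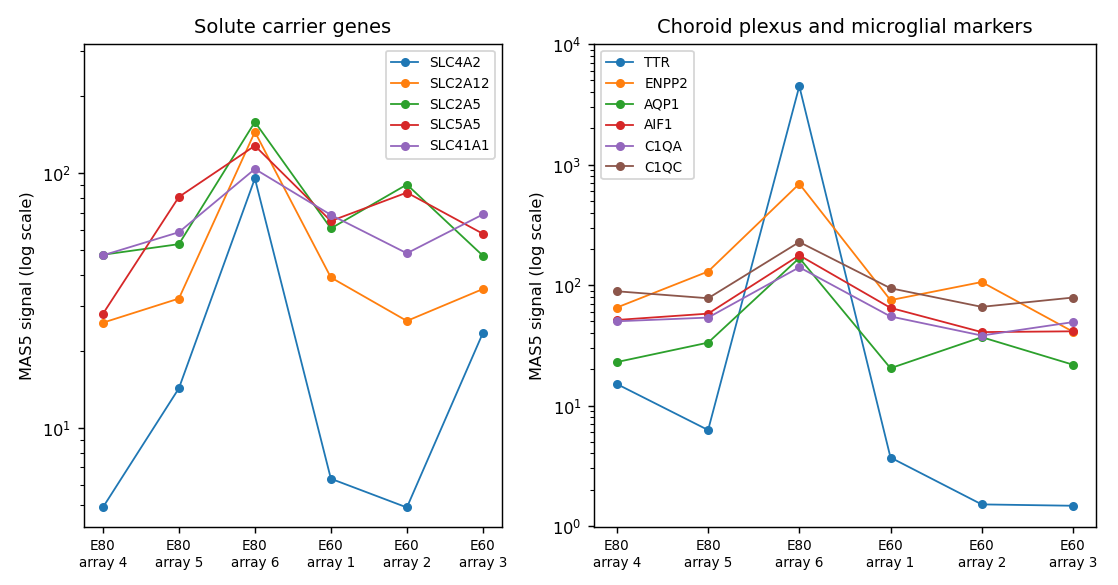
Signal (log scale) on each array, E80 arrays 4, 5 and 6 at the left and E60 arrays 1, 2 and 3 at the right. The left panel has 5 solute carrier genes that were chosen by their signal on array 6. The right panel has the choroid plexus markers TTR, ENPP2 and AQP1 and the microglial markers AIF1, C1QA and C1QC. All lines drawn peak on array 6, where SLC4A2 had a signal of 95.2 and TTR one of 4475. Not every measured marker is drawn, and the microglial markers ITGAM and PTPRC, which are left out, peaked on other arrays.

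Arrays 3 and 6 were both the highest of their day in 13 of 68 solute carrier genes above the median signal (19.1%), against 15.3% of all genes above it. In some of these the 2 arrays were nearly equal while the others lay lower. SLC25A39, which brings glutathione into mitochondria, had 232, 182 and 268 at E80, against 158, 145 and 268 at E60. SLC25A1 had 591, 539 and 691 at E80, against 444, 478 and 701 at E60, and SLC5A6 followed with 228, 171 and 274 at E80, against 192, 186 and 271 at E60. For these genes the spread within a day was as wide as the distance between the days. SLC3A2 and the choline carrier family member SLC44A2 were among the 13 as well. SLC44A2 had a difference of -0.16 (SE 0.20) on its brightest probe set. Its other probe sets, also bright, had -0.04 (SE 0.24) and -0.72 (SE 0.22), the latter with all E80 arrays below all E60 arrays.

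In 14 genes 2 or more probe sets were brighter than the median, and in 10 of these genes all bright probe sets had the same sign. The signs differed in SLC38A1, SLC38A9, SLC35C2 and SLC25A14, all with small differences on the brightest probe set. Of 115 members placed on a chromosome of the RefSeq annotation, 24 overlap another protein-coding gene, SLC15A2, SLC22A3, SLC25A11 and SLC38A1 among them, and whether their probe sets read the neighbouring transcript was not checked.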

How the data were processed

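RNA of the cerebral cortex of pig embryos was measured at E80 (3 arrays) and E60 (3 arrays). The deposited values are linear intensity values of the MAS5 algorithm, 1 for each probe set on each array. The authors had scaled every array to a common level (trimmed mean 150.02 on each). No MAS5 version is given in the sources used here, and detection calls for single probe sets were not used here. The log2 of these deposited signals was taken with no pseudocount, so differences of dim genes are noisy.

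Of 24123 probe sets 124 controls were left out, and the 23999 others were compared between E80 and E60 by limma (version 3.58.1, R 4.3.3; lmFit, then eBayes with an intensity trend) on all 6 arrays without covariates. Benjamini-Hochberg adjustment ran over all of them. Replicates are separate embryos, and 3 arrays per day limit the precision. Symbols come from the platform annotation, and 117 of 119 matched RefSeq (Sscrofa11.1) by gene number, with none that differed. Class, partner and marker lists were written by hand. Members and lists were chosen with earlier results of these data known. Named genes were those past the test, up to 5 per class with the smallest p, members 3-fold apart, landmark genes (21 of 47 measured) and the 2 brightest per class. Other members were named after their values were seen. The test was also tried on simulated data.

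Alternatives were 2 other scalings (quantile normalization, and each array centred on its median), an offset of 32 on the signals, a filter that kept the brightest 66%, other variance models, array weights, the mean over a gene's probe sets, other fold rules, and leaving out each array in turn. Counts of genes without overlap were repeated without array 6 and under both scalings after the data were seen.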

Additional observations from a re-analysis of the deposited data

How the results depend on the processing

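The count of solute carrier genes that rose, 0 on the deposited scale, was 1 with quantile normalization (SLC1A2), 2 with median centring (SLC1A2 and SLC25A5), 3 with the brightest 66% of probe sets and 3 with the mean of all probe sets of a gene (SLC1A2, SLC25A17 and SLC25A5 in both), 1 with a robust trend (SLC1A2) and 4 with array weights (these 3 and SLC25A24). It stayed at 0 with 32 added to each signal (11 at an unadjusted p under 0.05) and without an intensity trend (10), where no probe set of 23999 passed although 3706 had an unadjusted p under 0.05. No gene fell in these settings. Leaving out single arrays gave 0 to 1 genes that rose and 0 to 1 that fell (SLC25A17 rose without array 6, SLC22A2 fell without array 5). Over all probe sets 224 rose and 243 fell (48.0% rising), against 311 and 108 (74.2%) with median centring. Only 1 probe set of all passed when array 1, array 2 or array 4 was left out, so that a count of 0 members there says little about them. Counted over the brightest probe set per gene, members 3-fold apart stayed at 0 under every fold rule tried.

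Of 803 pairs of a named gene and a setting, 45 had the other sign, in 19 of 58 genes; none of these values passed the test, and the cause was not tested. With the mean of all probe sets the differences were -0.11 for SLC1A1, -0.83 for SLC25A24, -0.42 for SLC25A3, -0.63 for SLC2A4, -0.11 for SLC38A1, -0.059 for SLC3A1, -0.79 for SLC4A4 and 0.32 for SLC9A5. With quantile normalization they were 0.077 for SLC2A4RG, -0.0084 for SLC38A1 and -0.0059 for SLC3A1. With median centring they were 0.095 for SLC2A4RG, 0.11 for SLC7A1 and 0.029 for SLC9A3R1, and with array weights -0.036 for SLC3A1, -0.19 for SLC4A4 and 0.062 for SLC7A1. Leaving out single arrays, the differences ran from -0.16 to 0.35 for SLC1A3, -0.040 to 0.11 for SLC1A4, -0.34 to 0.030 for SLC1A5, -0.041 to 0.15 for SLC1A6, -0.11 to 0.070 for SLC2A4RG, -0.057 to 0.24 for SLC37A1, -0.047 to 0.12 for SLC38A1, -0.40 to 0.011 for SLC39A1, -0.21 to 0.21 for SLC3A1, -0.41 to 0.40 for SLC4A4, -0.11 to 0.23 for SLC5A6, -0.66 to 0.13 for SLC6A4 and -0.10 to 0.12 for SLC7A1.

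No paired analysis was possible because the labels give no replicate numbers or litters that tie an E80 array to an E60 array. Array signals have no counting depth. Dim members had wider errors (median SE 0.35 at or below the median signal, against 0.16 above it), so that differences of their size were harder to detect.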
